A study of Mus musculus with 6 samples.

Results

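The 7 genes of the Ink4 and Cip/Kip families, Cdkn2a, Cdkn2b, Cdkn2c, Cdkn2d, Cdkn1a, Cdkn1b and Cdkn1c, were followed in sorted mouse bone marrow cells of 2 ages. They are 7 of the 20018 genes that the array's probes named through a RefSeq symbol. All non-control probes whose transcript accession in the scanner files belongs to a member were taken, which gave 10 probes on 19 spots per array. The old samples came from C57BL/6 mice aged 24 months (n = 3) and the young samples from C57BL/6 mice aged 3 months (n = 3), with no treatment or genetic change named. The labels call the cells mesenchymal stem cells of the bone marrow and say that they were labelled and sorted, but do not name the sort markers. Total RNA of each sample was measured on 1 Agilent 1-colour array. The labels do not state whether each sample had its own donor mice, so a p-value here speaks of sample-to-sample spread, which can be partly technical, and 6 arrays limit the precision of every value.

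Ink4 proteins bind Cdk4 and Cdk6 and keep D cyclins from activating them, so that the retinoblastoma protein stays unphosphorylated and the cell stays in the G1 phase. Cip/Kip proteins act mainly on the cyclin E and cyclin A complexes of Cdk2 and also help D cyclins assemble with Cdk4. In bone marrow, p18Ink4c (from Cdkn2c), p21 (from Cdkn1a), p27 (from Cdkn1b) and p57 (from Cdkn1c) are known for restraining the division of blood stem cells and progenitors, and p16Ink4a, from Cdkn2a, is widely used as a marker of senescent cells.

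Across the whole array, the 75th percentile of processed intensities ran from 229 to 319 on old arrays and 315 to 393 on young arrays, and 50.9% to 53.4% against 55.2% to 60.0% of probes were well above background. The 6 arrays shared 1 slide and 1 scan, with the old arrays in row 2 and the young arrays in row 1, so slide row and age cannot be told apart. Of the 15 markers of mesenchymal stroma, 5 (Pdgfra, Pdgfrb, Prrx1, Foxc1 and Twist1) were above background on no array and 6 (Lepr, Cxcl12, Eng, Thy1, Col1a2 and Sparc) on all 6. All 9 erythroid markers on the array and all 10 leukocyte markers were also above it on all 6, so the markers match the label of mesenchymal stem cells only in part. Of the 8 stroma markers tested, 4 were lower in old samples and 1 higher.

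No member passed the test for a difference between the ages. Of the 7 members, 5 were bright enough to test, of which Cdkn2d, Cdkn1a and Cdkn2c differed most relative to their error, and Cdkn2a and Cdkn2b stayed below the array's detection limit everywhere. Of the 5 tested probes, 0 passed limma's test at an adjusted p of 0.05, against a background of 8.1% of the 31286 probes tested (4.37% higher and 3.73% lower in old samples), and 3 had an unadjusted p under 0.05, against 27.8% of all tested probes. Among those 3, the Cdkn1a probe could enter the test through its young arrays alone. The plot of the 10 probes' signals shows the contrast between dim and bright probes.

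**Figure D1:**
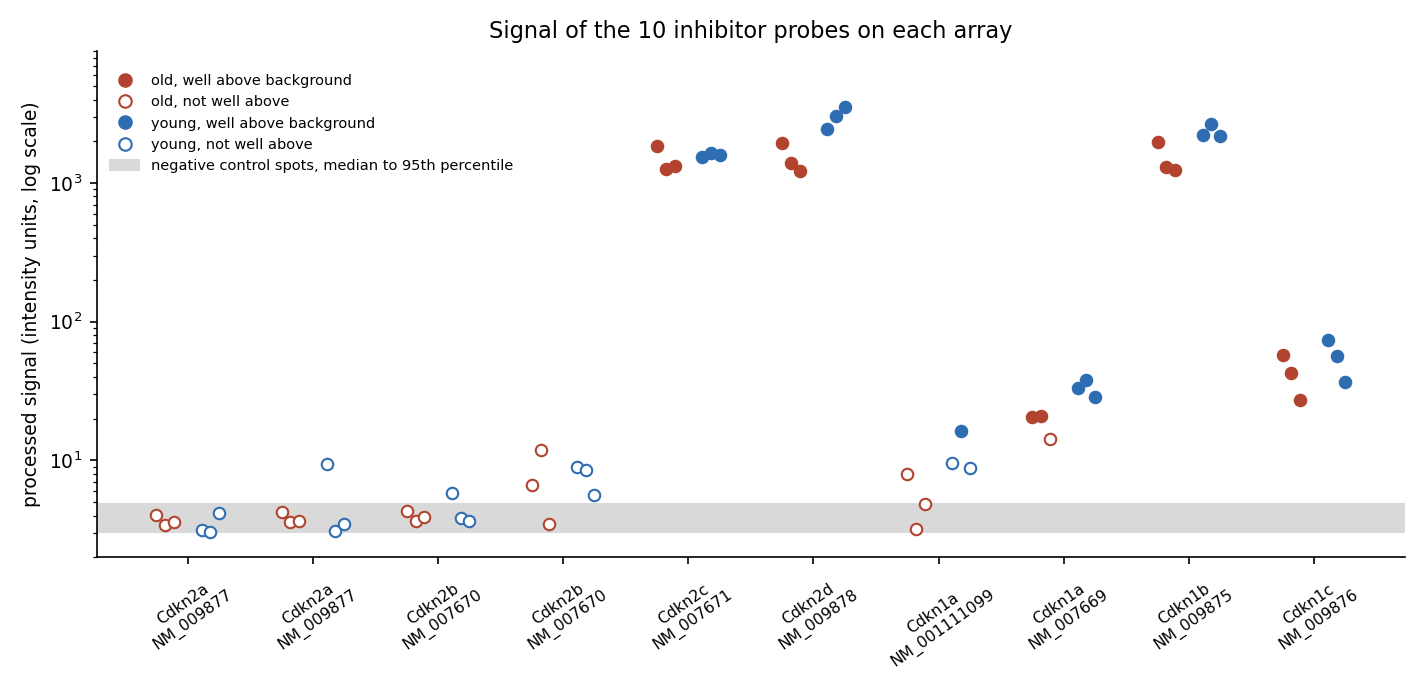
Processed signal (intensity units, log scale) of each inhibitor probe on the 3 old (red) and 3 young (blue) arrays, filled where the probe was well above background. The probes of Cdkn2a and Cdkn2b lie around or somewhat above the grey band, up to 11.9 for 1 Cdkn2b probe on old array 2. The band spans the lowest median to the highest 95th percentile of the negative control spots (3.07 to 4.87). No reading of Cdkn2c, Cdkn2d or Cdkn1b is below 1217.

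Cdkn2a gives 2 unrelated proteins from 2 starts. In mice the upstream start gives p19Arf, which binds Mdm2 and so stabilises p53, and the downstream start gives p16Ink4a. The 250 bases before each start are shown because the 2 starts differ in the sequence ahead of them and no probe of the gene was bright in either age. They are from RefSeq on build GRCm38.p6, at chr4:89294620-89294869 and chr4:89282193-89282442 on the minus strand, with the GC box GGGCGG, searched on both strands, in capitals.
Cdkn2a, upstream start: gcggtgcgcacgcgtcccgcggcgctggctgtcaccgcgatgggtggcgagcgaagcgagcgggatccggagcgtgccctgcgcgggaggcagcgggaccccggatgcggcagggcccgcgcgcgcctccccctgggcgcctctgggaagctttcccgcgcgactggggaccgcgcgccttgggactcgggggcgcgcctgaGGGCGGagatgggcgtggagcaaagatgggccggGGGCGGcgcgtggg
Cdkn2a, downstream start: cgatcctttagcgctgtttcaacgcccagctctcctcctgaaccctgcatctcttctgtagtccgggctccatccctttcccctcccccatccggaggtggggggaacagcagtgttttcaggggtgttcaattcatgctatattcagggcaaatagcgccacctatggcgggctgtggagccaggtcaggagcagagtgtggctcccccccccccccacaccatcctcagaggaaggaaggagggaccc
The upstream window held 2 GC boxes and the downstream window 0, and 32.7% of the 32851 promoter windows of this length held at least 1. A match describes the letters and is neither a binding site nor a cause.

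Cdkn2a had 2 probes, A_55_P2008437 and A_55_P2008438, both designed for transcript NM_009877. The exons that these probes lie in could not be checked, so their readings cannot be assigned to p16Ink4a or p19Arf. The first read 4.01, 3.41 and 3.62 intensity units on old arrays 1 to 3, against 3.15, 3.04 and 4.16 on young arrays 1 to 3. The second read 4.26, 3.57 and 3.66 on the old arrays, against 9.48, 3.09 and 3.49 on the young arrays. The groups overlapped at both probes, and young array 1 alone stood out, at the second. On 5 of the 6 arrays each probe's signal was no larger than the error that the scanner software gave it. The 308 negative control spots of each array had medians of 3.07 to 4.13 and 95th percentiles of 3.60 to 4.87, and the dimmest probe well above background read 13.2 to 17.4. Whether Cdkn2a differs between the ages was therefore not measurable with these 2 probes, and no fold change is given. Of all 55681 probes, 35.3% were likewise above background on no array.

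Cdkn2b encodes p15Ink4b, which TGF-beta is known to induce. Its probe A_55_P1979526 (NM_007670) read 4.35, 3.66 and 3.90 on the old arrays, against 5.82, 3.86 and 3.67 on the young arrays. Its other probe, A_55_P1988183, designed for the same transcript, read 6.70, 11.9 and 3.47 on the old arrays, against 8.89, 8.55 and 5.60 on the young arrays. The groups overlapped at both probes, and none of the 12 readings was well above background. The second probe exceeded its software error on 5 of the 6 arrays but lay under the array's detection limit and was not tested.

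Cdkn2c, which encodes p18Ink4c, was bright on all 6 arrays. Its probe (NM_007671) read 1836, 1269.5 and 1323 intensity units on the old arrays, against 1536, 1649 and 1592 on the young arrays. Old arrays were dimmer as a whole, and after each array was set against its 75th percentile the log2 values were 2.53, 2.34 and 2.53 in old samples, against 2.03, 2.07 and 2.34 in young samples. On that scale all 3 old samples lay above all 3 young ones, but old sample 2 and young sample 3 were level to 2 decimals. The mean was 2.47 ± 0.11 in old and 2.15 ± 0.17 in young samples (SD, n = 3 each), a difference of 0.32 ± 0.12 (log2, SE; 95% interval 0.03 to 0.61) or 1.25-fold. This difference did not pass limma's test (adjusted p = 0.148).

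Cdkn2d encodes p19Ink4d and is the other Ink4 gene that was bright enough to test. With all 6 arrays it showed the greatest difference of the 5 tested probes. Its probe (NM_009878) read 1937, 1407 and 1217 intensity units on the old arrays, against 2443, 3064 and 3552 on the young arrays. The scaled log2 values were 2.60, 2.49 and 2.41 in old samples, against 2.70, 2.96 and 3.50 in young samples. The groups did not overlap, with the old samples within 0.20 log2 units of each other and the young ones spread over 0.80, young sample 3 highest. The means were 2.50 ± 0.10 in old and 3.05 ± 0.41 in young samples (SD, n = 3 each). The difference of -0.55 ± 0.21 (log2, SE; 95% interval -1.06 to -0.05), a fold of 0.682, did not pass limma's test (adjusted p = 0.151). Without young sample 3 it was -0.33, smaller than Cdkn1a (-0.48) and Cdkn2c (0.42), and without old sample 2 it was -0.55, smaller than Cdkn1a (-0.63). With normexp background correction the Cdkn2d difference was -0.64 and passed (limma, adjusted p = 0.0256).

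The 250 bases before the Cdkn2d start (RefSeq, GRCm38.p6, chr9:21291210-21291459, minus strand) are shown because this gene differed most when all 6 arrays were used. They held 3 GC boxes, in capitals, of which the last reads CCGCCC because it lies on the other strand.
Cdkn2d: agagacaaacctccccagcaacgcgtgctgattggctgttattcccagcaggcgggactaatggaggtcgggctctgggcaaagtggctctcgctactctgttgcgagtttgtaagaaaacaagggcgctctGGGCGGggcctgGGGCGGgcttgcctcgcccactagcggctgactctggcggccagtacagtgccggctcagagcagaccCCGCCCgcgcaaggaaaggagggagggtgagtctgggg

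The order of the 6 samples at Cdkn2d, from young 3, young 2 and young 1 to old 1, old 2 and old 3, was also that of the mean level of 10 leukocyte markers. Those markers averaged 0.97 to 1.40 (scaled log2) in old samples and 2.18 to 3.16 in young samples, and 7 of the 10 were lower in old samples by limma. The 11 neutrophil markers had the same order, at 3.86 to 4.45 in old and 4.93 to 5.92 in young samples, with 4 of 11 lower. The order was not particular to white-cell lists, since the 6 tested senescence-associated genes described below also had it. They averaged -1.48 to -1.08 in old and -0.57 to 0.11 in young samples. The other white-cell lists had other orders. The 9 tested B cell markers averaged -1.82 to -0.61 in old and 0.69 to 1.47 in young samples (6 of 9 lower), with young 1 highest. The 8 tested monocyte markers had young 1 above young 2 (7 of 8 lower). The mean level of the 7 tested T cell markers overlapped between the ages, with 2 called higher in old samples, 0 lower and a median difference of -0.78. All 10 leukocyte and all 11 neutrophil markers were above background on all 6 arrays. Some were dim, such as Cd53 at -3.40 on old array 3, where the dimmest detected probe was at -4.36. The 9 tested erythroid markers averaged 4.72 to 4.83 in old and 4.67 to 4.95 in young samples, with 0 of 9 called and 1 at an unadjusted limma p under 0.05. The part of these cells in the Cdkn2d difference was not tested, and in a bulk sample fewer cells of a type cannot be told apart from less RNA per cell.

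Cdkn1a encodes p21, which p53 induces after DNA damage. RefSeq gives it 2 starts, and the 250 bases before each (GRCm38.p6, plus strand, chr17:29090729-29090978 and chr17:29093519-29093768) are shown because p53 and its other targets are described with the results. Capitals mark a p53 response element in the first, defined as 2 abutting 10-base sites with at most 1 mismatch outside the core, and 2 GC boxes in the second.
Cdkn1a, upstream start: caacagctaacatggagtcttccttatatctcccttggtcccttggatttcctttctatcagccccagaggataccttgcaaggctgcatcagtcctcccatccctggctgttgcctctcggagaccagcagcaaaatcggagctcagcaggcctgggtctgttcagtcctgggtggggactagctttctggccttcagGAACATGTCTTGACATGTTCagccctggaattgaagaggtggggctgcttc
Cdkn1a, downstream start: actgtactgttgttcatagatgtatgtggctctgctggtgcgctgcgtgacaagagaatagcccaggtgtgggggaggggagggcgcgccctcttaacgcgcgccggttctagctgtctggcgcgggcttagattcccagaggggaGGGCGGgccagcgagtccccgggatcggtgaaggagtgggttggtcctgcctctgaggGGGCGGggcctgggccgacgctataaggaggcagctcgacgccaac
A p53 element of this form was in 15 of the 32851 windows (0.0457%). The promoter table does not pair the 2 starts with the transcripts that the probes were designed for.

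The Cdkn1a probe for NM_007669 was printed on 10 spots per array. It read 20.4, 20.7 and 14.3 intensity units on the old arrays, against 33.5, 37.8 and 28.8 on the young arrays, and all 3 old samples lay below all 3 young ones. Of its spots, 6, 8 and 2 of 10 were well above background on the old arrays, against 10 of 10, 9 of 9 and 9 of 9 on the young arrays after 2 outlier spots were dropped. The spots of old array 3 spread from 6.43 to 24.4, and those of young array 2 from 33.2 to 46.5. On the scaled log2 axis the values were -4.02, -3.62 and -4.13 in old samples, against -3.50, -3.39 and -3.45 in young samples.

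The mean of that Cdkn1a probe was -3.92 ± 0.27 in old and -3.45 ± 0.06 in young samples (SD, n = 3 each). The difference of -0.48 ± 0.15 (log2, SE; 95% interval -0.84 to -0.12) had an unadjusted p of 0.0177 and did not pass limma's test after adjustment (adjusted p = 0.104). The young arrays alone were enough to bring this probe into the test, so its unadjusted p is weak support. The signal is close to that of the dimmest probe well above background on each array, 13.2 to 17.4 intensity units. Brighter spots could also miss detection, such as 1 at 19.9 on old array 1. With normexp background correction the difference turned to 0.12. The other Cdkn1a probe, A_55_P1986282 for NM_001111099, read 7.94, 3.20 and 4.81 on the old arrays, against 9.503, 16.2 and 8.88 on the young arrays. It was well above background on young array 2 only and was not tested. The plot of the Cdkn1a spots shows all 10 spots of the first probe.

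**Figure D2:**
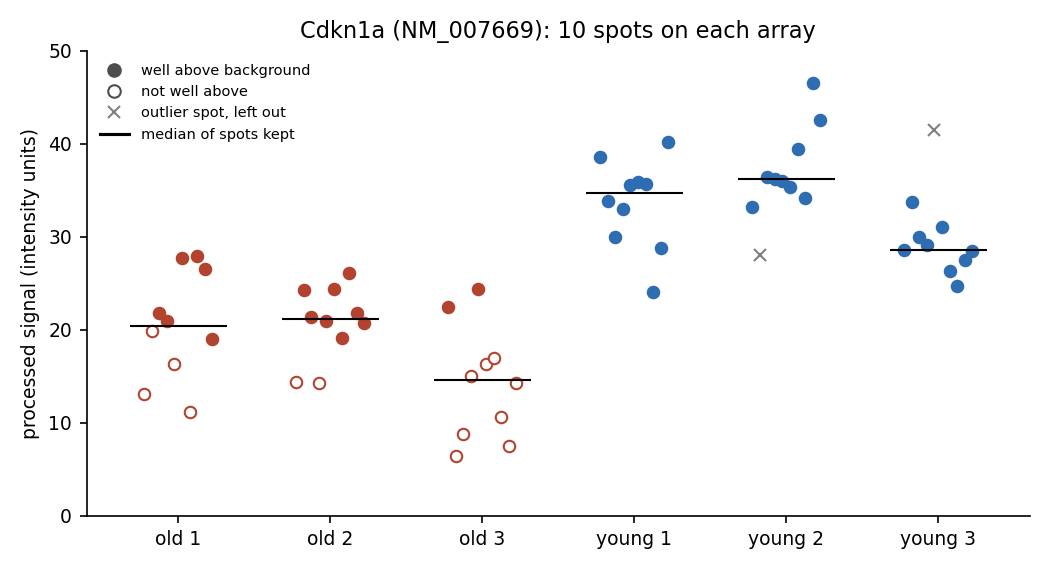
Processed signal (intensity units) of each spot of the NM_007669 probe of Cdkn1a, old arrays 1 to 3 left of young arrays 1 to 3, with the array's median as a line, open circles for spots not well above background and crosses for 2 outlier spots left out. The spots of old array 3 reach down to 6.43, and the lowest spot used on a young array is at 24.0.

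Cdkn1b encodes p27, whose level is known to be set largely by protein turnover. Its probe (NM_009875) read 1983, 1309.5 and 1246 intensity units on the old arrays, against 2228, 2686 and 2186 on the young arrays. The scaled log2 values were 2.64, 2.39 and 2.44 in old samples, against 2.57, 2.77 and 2.80 in young samples, and the groups overlapped because old sample 1 lay above young sample 1. The mean was 2.49 ± 0.13 in old and 2.71 ± 0.13 in young samples (SD, n = 3 each). The difference of -0.22 ± 0.11 (log2, SE; 95% interval -0.50 to 0.05) did not pass limma's test (adjusted p = 0.259). The interval holds no change and also a fold as low as 0.709.

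Cdkn1c, an imprinted gene expressed from the maternal copy, encodes p57. Its probe (NM_009876) read 57.8, 42.5 and 27.2 intensity units on the old arrays, against 74.2, 56.7 and 36.5 on the young arrays. The scaled log2 values were -2.46, -2.56 and -3.08 in old samples, against -2.34, -2.80 and -3.11 in young samples, so the groups overlapped almost fully and the arrays within an age differed by up to 0.77. The mean was -2.70 ± 0.33 in old and -2.75 ± 0.39 in young samples (SD, n = 3 each). The difference of 0.05 ± 0.25 (log2, SE; 95% interval -0.55 to 0.65; limma adjusted p = 0.919) leaves room for a fold between 0.682 and 1.57. Under 3 of the other scalings its sign turned, at -0.02 with quantile and cyclic loess normalisation and -0.07 in the deposited table.

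Of the 5 tested member probes, 3 (60%) did not overlap between the ages, against 36.2% of all tested probes. Cdkn2c had the old samples above the young ones, as did 24.4% of all tested probes, and Cdkn2d and Cdkn1a had them below, as did 11.8%. The young arrays of Cdkn1a were alone enough to bring it into the test. For Cdkn2c, Cdkn2d and Cdkn1a an exact two-sided permutation test over the 6 samples gave p = 0.1, the smallest that 3 against 3 can give, and for Cdkn1b and Cdkn1c it gave 0.2 and 0.9. The median difference of the 5 probes was -0.22, beside 0.08 over all tested probes, with 3 below 0 and 2 above it. The plot of tested inhibitors by age gives the 6 values of each, and the plot of fold changes by setting shows how far each moved under other processing.

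**Figure D3:**
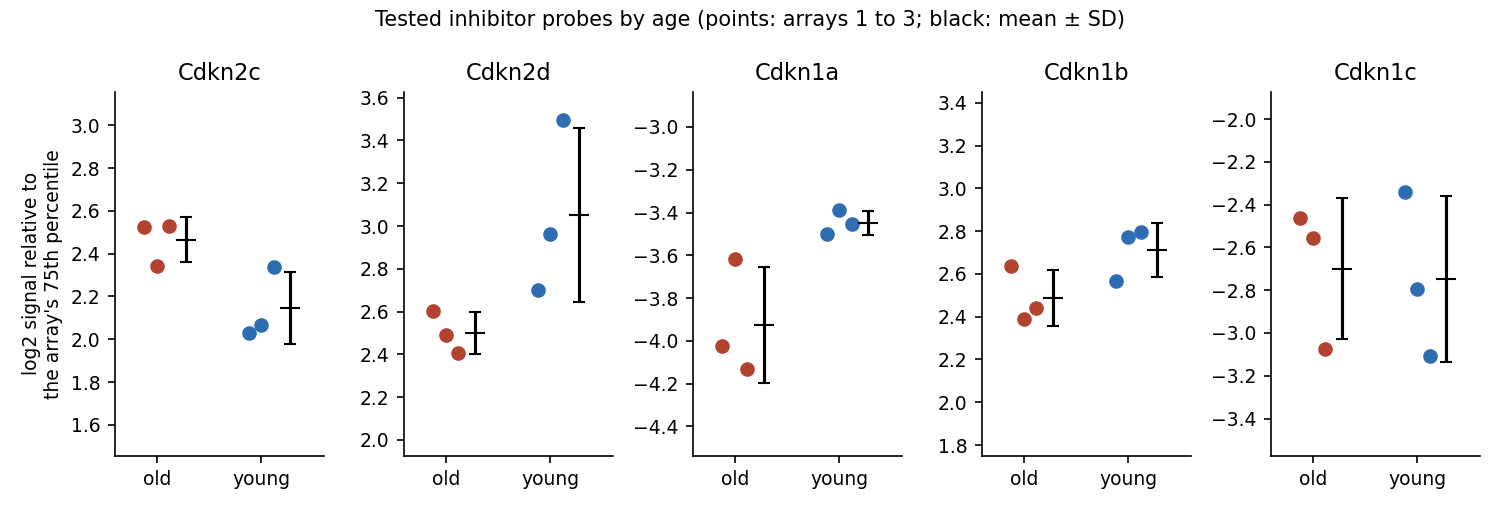
Scaled log2 signal (array 75th percentile subtracted) of the 5 tested inhibitor probes, old samples left and young right in each panel, with the mean ± SD beside the points. The 2 ages are apart for Cdkn2c, Cdkn2d and Cdkn1a, and overlap for Cdkn1b and Cdkn1c.

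**Figure D4:**
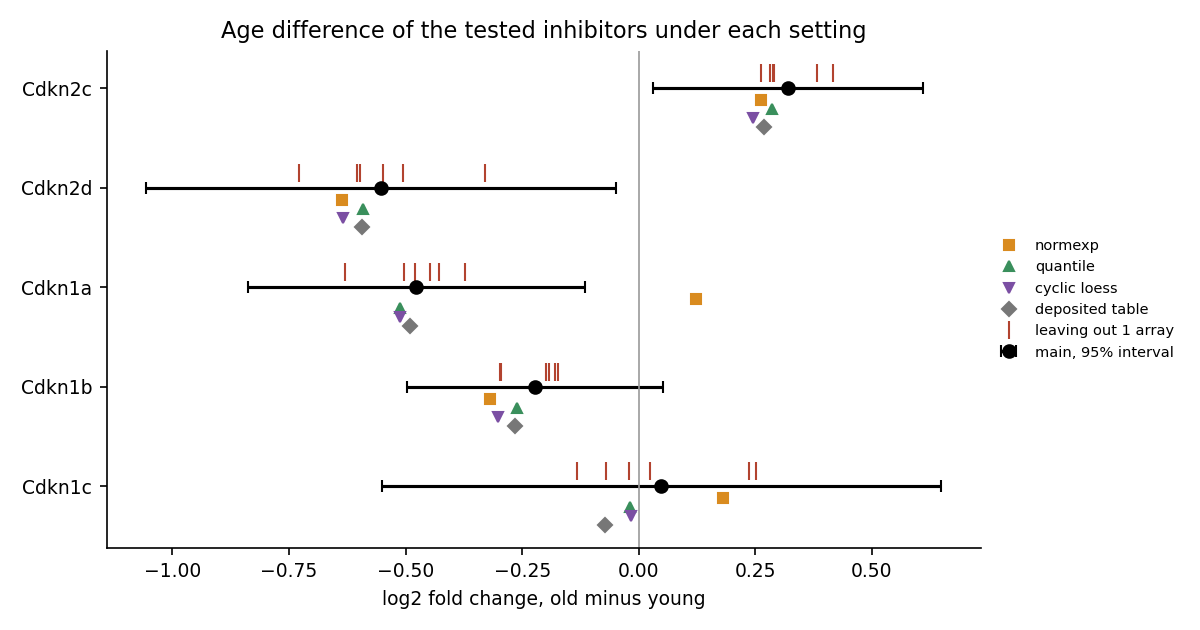
Log2 fold change (old minus young) of the 5 tested inhibitors with its 95% interval (black), under 4 other background corrections or scalings (coloured symbols) and with 1 array left out (red ticks). Cdkn2c stays between 0.25 and 0.42 and Cdkn2d between -0.73 and -0.33, whereas Cdkn1a turns to 0.12 under normexp and Cdkn1c lies on both sides of 0.

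No gene that the inhibitors act on passed the test with the main processing, and with normexp 2 of the 13 tested Cip/Kip targets and activators did. Normexp called 4895 of all 31286 tested probes, against 2534 with the main processing, and its list counts here and below stand beside that. None of the 5 Ink4 targets passed, with differences of 0.15 ± 0.09 for Cdk4, -0.09 ± 0.25 for Cdk6, 0.43 ± 0.24 for Ccnd1, 0.16 ± 0.22 for Ccnd2 and -0.15 ± 0.13 for Ccnd3 (log2, SE). Likewise 0 of 13 tested Cip/Kip targets and activators passed (median 0.02), and 0 of 3 pocket proteins, the retinoblastoma family that Cdk4 and Cdk6 phosphorylate, where Rbl2 differed by 0.48 ± 0.18, Rb1 by 0.18 ± 0.14 and Rbl1 by -0.18 ± 0.11. None of 15 proliferation genes passed, with a median of -0.03. At an unadjusted limma p under 0.05 the counts were 0 of 5, 2 of 13, 1 of 3 and 1 of 15. Over the 13548 tested genes with a symbol, 8.29% passed (3.08% higher and 5.21% lower in old samples) and the median difference was 0.05.

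Some genes that control the inhibitors did pass. Among 12 tested genes of Cip/Kip protein turnover, 2 were higher in old samples and 0 lower. Uhmk1, a kinase that phosphorylates p27, rose by 0.74 ± 0.10 (log2, SE; limma adjusted p = 0.0239), with values of -1.19, -1.13 and -1.13 in old samples, against -1.87, -2.04 and -1.76 in young samples. Cul1, the scaffold of the ubiquitin ligase that removes p27, rose by 0.50 ± 0.10 (limma adjusted p = 0.0374). Its values were 1.47, 1.27 and 1.47 in old samples, against 0.84, 0.97 and 0.88 in young samples. Neither gene's groups overlapped.

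Of 18 tested regulators of the Ink4/Arf locus, 3 were called lower and 0 higher, with a list median of -0.13, and 1 of the 3 (Hmga2) entered the test only through its young arrays. The transcription factor Ets1, which is known to activate p16Ink4a, fell by 0.91 on the log2 scale (SE 0.17; limma adjusted p = 0.0364), and its second probe was also called, at -2.31. Id1, which opposes Ets factors there, fell by 1.52 on the log2 scale (SE 0.31; limma adjusted p = 0.0405), and by 0.84 with normexp. Hmga2, known in mouse for repressing the Ink4/Arf locus, was above background on all 3 young arrays and no old one (limma adjusted p = 0.0354). Since its young arrays alone brought it into the test, that p is no support of its own, and with normexp background correction its difference was 0.10. Against the dimmest detected probe of each old array, its young level was 1.496-fold higher. This is no firm minimum, since spots brighter than the dimmest detected probe can also miss detection. Of 2 Hmga2 probes, 1 was tested. The polycomb genes Bmi1 and Ezh2, known repressors of the locus that are named here for their role after their values were seen, differed by 0.12 ± 0.09 and -0.16 ± 0.10 and did not pass.

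In the p53 axis, 0 of 6 genes passed and 3 had an unadjusted limma p under 0.05, as did 27.8% of all tested probes. By the same adjusted threshold 2 passed where probes had to be above background on all 6 arrays (2963 of all 26766 probes tested there). With normexp 3 passed (4895 of all 31286 probes). Trp53 itself differed by 0.53 ± 0.14 (log2, SE; limma adjusted p = 0.0659) and Mdm2, its ubiquitin ligase, by -0.11 ± 0.08, both named for their role after their values were seen. Besides Trp53, the 3 were Mdm4 at 0.63 ± 0.15 (limma adjusted p = 0.0575) and Chek2 at -0.31 ± 0.09 (limma adjusted p = 0.0901). Of 13 tested p53 targets other than Cdkn1a, 1 was lower and 0 higher, with a median of -0.14, and 3 passed with normexp. That gene was Fas, a death receptor, which fell by 2.46 on the log2 scale (SE 0.31; limma adjusted p = 0.0236) and was above background on 1 of 3 old arrays and all 3 young ones. Its old level is thus mostly below detection, which leaves the size of the fall uncertain, and with normexp the difference was -0.76. The young arrays alone were enough to bring Fas into the test, so its p is weak support.

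Of 16 tested transcriptional regulators of Cip/Kip genes, 3 were lower and 0 higher, with a median of -0.04, and 5 passed with normexp. Klf4, a known activator of Cdkn1a, fell by 1.19 on the log2 scale (SE 0.18; limma adjusted p = 0.0265). Cebpa, a myeloid factor that is known to raise p21 protein, fell by 1.105 on the log2 scale (SE 0.17; limma adjusted p = 0.0284), and by 0.28 with normexp, where it did not pass. Foxo1, of the family that activates Cdkn1b, fell by 0.83 on the log2 scale (SE 0.13; limma adjusted p = 0.0288), while its other probe, at -0.54, was not called. Foxo3 (0.39 ± 0.11) and Foxo4 (0.32 ± 0.16; log2, SE), of the same family, lay above 0 and were not called. The 3 called genes and those called above lie on the same arrays as the leukocyte markers that were lower in old samples, and the part of those cells in their differences was not tested.

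Of 11 imprinted neighbours of Cdkn1c, 9 were tested and 0 passed, 1 with an unadjusted limma p under 0.05 (median 0.17). Of 17 senescence-associated genes, 8 were above background on no array, among them Il6, Il1a, Cxcl1, Mmp3, Timp1, Igfbp3 and Igfbp7, and 6 were tested. Of those 6, 2 were lower and 0 higher, with a median of -1.40. Glb1 (0.23 ± 0.09) and Lmnb1 (0.17 ± 0.12) lay above 0 (log2, SE). Il1b (-1.90 ± 0.46) and Cxcl2 (-1.58 ± 0.58) lay below it, and none of these was called. Ccl2, a chemokine, fell by 1.35 on the log2 scale (SE 0.17; limma adjusted p = 0.0236), and the cytokine Tnf fell by 1.45 on the log2 scale (SE 0.24; limma adjusted p = 0.0290). With normexp these differences were -0.32 for Ccl2, which still passed, and -0.33 for Tnf, which did not pass. Both were above background on 2 of 3 old and 3 of 3 young arrays. Their young arrays were alone enough to bring them into the test, so each p is weak support. Both are also expressed by monocytes, whose 8 tested markers averaged -1.72 to -1.17 in old samples and 0.15 to 1.12 in young samples, with 7 of 8 lower. The part of monocytes in these differences was not tested.

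The 11 calls in these pathway lists depended on the number and choice of samples, whereas every difference kept its sign with any 1 sample left out. All 11 calls ended when young 1, young 2, old 2 or old 3 was left out, 3 held without young 3 and 6 held without old 1. Over these 6 fits the difference was 0.67 to 0.81 for Uhmk1, -1.37 to -1.07 for Klf4 and -1.46 to -1.18 for Ccl2.

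**Figure D5:**
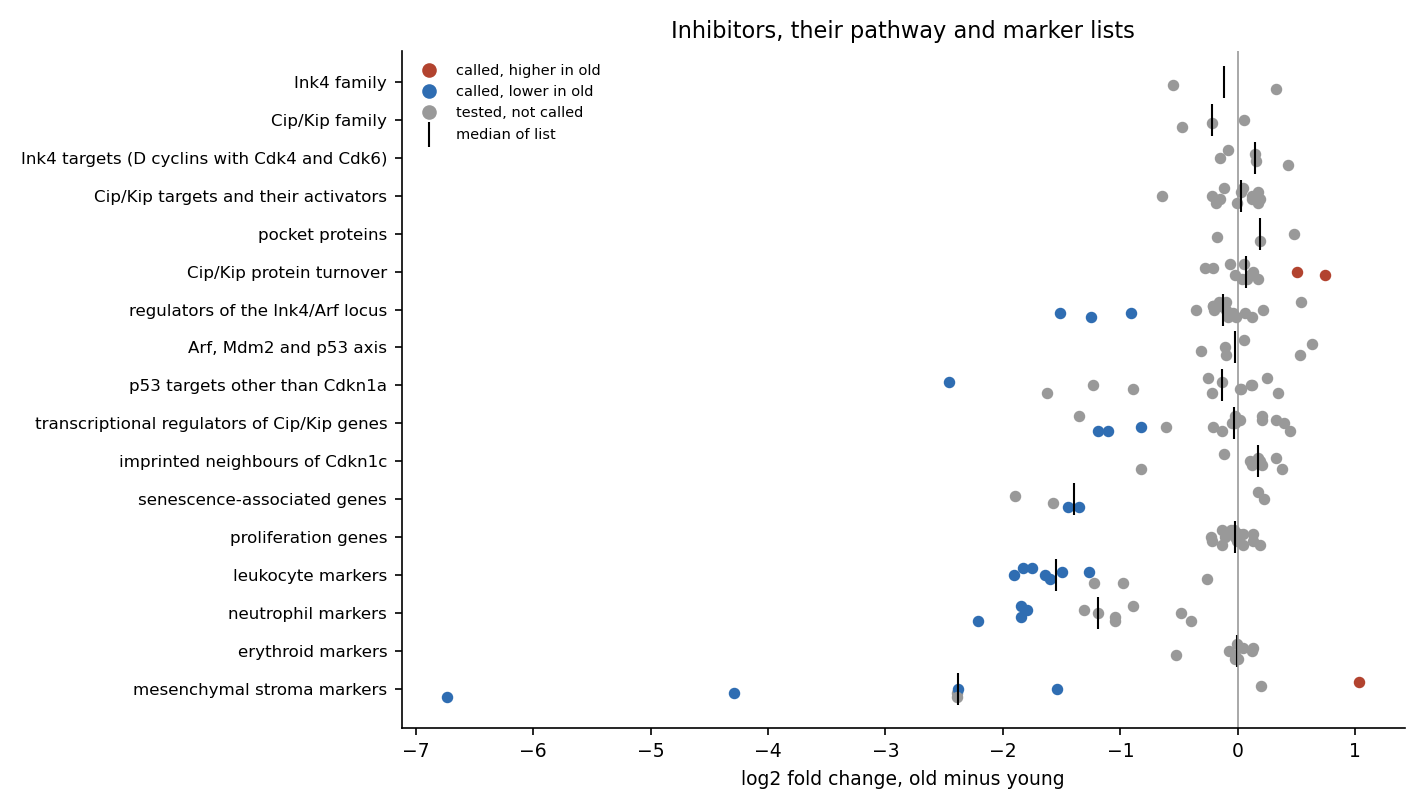
Log2 fold change (old minus young) of each tested gene in the inhibitor families, their pathway lists and 4 marker lists, with red for called and higher in old samples, blue for called and lower, grey for not called and a bar at the list's median. The inhibitor families and their direct targets hold no called gene, whereas 7 of 10 leukocyte markers are called lower.

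For the members above background on all 6 arrays, the genes with the most similar pattern over those 6 arrays were picked from 11728 genes by Pearson's r, as a description. Cdkn2c was nearest to Ap5m1 (r = 0.998), Cmc2 (0.985) and Olfr905 (0.983), and Cdkn2d to Brox (0.996), H2-Ab1 (0.995) and Actr3 (0.994). Cdkn1b was nearest to Tmpo (0.997), Edem2 and Cutc (0.988 each), and Cdkn1c to Zscan21 (0.979) and Rcn2 (0.977). Each r rests on 6 points from the same arrays, which share their scaling.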

How the data were processed

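Each scanner file holds spot intensities as Agilent Feature Extraction wrote them and the authors deposited them. Per the file headers this was version 10.7.3.1 with a probe design made on mm9. Version 10.5.1.1 is named in the submitters' processing notes. A log2 table deposited by the authors covers 52095 of the 55681 probes and was used as an alternative. How its arrays were scaled is not given in the sources.

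The members and gene lists were chosen with earlier results of these data known. Control spots and outlier spots were left out, repeated spots of a probe were averaged on the log2 scale, and each array's 75th percentile over its non-control spots was subtracted. A repeated probe counted as well above background when at least 0.5 of its spots did. Probes above background on at least 3 of 6 arrays were tested, 31286 in all, with lmFit and eBayes of limma 3.58.1 (R 4.3.3, no covariate) and Benjamini-Hochberg adjustment, at a threshold of 0.05. The files hold no gene symbols, so 26413 probes (47.4%) were named by accession from a RefSeq table of GRCm38.p6, and in lists a gene is its brightest probe. Where a gene was not above background in a group, the fold given sets the bright group's mean against, on each array, the higher of that gene's reading and the dimmest detected probe (means of scaled log2 values). This fold is no firm minimum.

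All member probes were named, the called genes of each list up to 5, and the 3 genes most like each member above background on all arrays. Some genes that this rule or the lists take are not reported here. The normexp alternative (offset 50) used the median spot signal, since a mean spot signal was not in the files used here. Correlations of deviations between same-numbered old and young samples were -0.0076, 0.0092 and -0.0043, against -0.097 to 0.087 between differently numbered ones. They show no pairing by number but, with 3 samples per age, cannot exclude one. In simulated data with 200 of 31260 probes changed between old and young, the fit recovered 58.8% of 1-unit and 84.4% of 2-unit log2 changes, with 5.04% of calls false. The simulated noise was independent between probes, with no effect shared by a whole array, so these rates need not hold for the real arrays. Tables were handled with Python 3.11.15 and pandas 2.3.3.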

Additional observations from a re-analysis of the deposited data

How the results depend on the processing

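No member passed limma's test under any of the alternatives except normexp background correction, which called 1 member probe (Cdkn2d, -0.64). With normexp Cdkn1a turned to 0.12 and Hmga2 to 0.10. Cdkn1c turned to -0.018 with quantile and -0.017 with cyclic loess normalisation and to -0.072 in the deposited table, and the cause was not tested. With 1 sample left out, Cdkn1c ranged from -0.13 to 0.25 (-0.13 without young 3, -0.07 without old 1, -0.02 without old 2), Cdkn1a from -0.63 to -0.37, Cdkn1b from -0.30 to -0.17, Cdkn2c from 0.26 to 0.42 and Cdkn2d from -0.73 to -0.33. The count of called probes, 2534 (1368 higher and 1166 lower in old samples), was 4895 with normexp (3594 higher). Of the calls, 54.0% were higher in old samples, against 73.4% with normexp, 65.6% with probes above background on all 6 arrays, 43.5% with cyclic loess (867 higher) and 40.4% in the deposited table (755 higher). Leaving out 1 sample gave 0 to 1477 called probes, 0 to 736 higher and 0 to 741 lower: 0 without old 2 (6887 at an unadjusted limma p under 0.05), 0 without old 3 (6716), 21 without young 1, 73 without young 2, 201 without young 3 and 1477 without old 1. With no filter on dim probes limma called 0 (18289 at an unadjusted p under 0.05). The fit with the replicate number as a block also called 0 probes, 0 higher and 0 lower (7425 at an unadjusted limma p under 0.05), and all 11 list calls ended in both. The correlations given above showed no pairing of the samples by number but cannot exclude one. All probes shifted by a median of 0.08, against 0.13 with normexp and 0.19 without the filter. Of the 11 list calls, all held with quantile normalisation, with the deposited table and with 1 probe per gene name, 10 with cyclic loess (Cul1 ended) and 8 with normexp (Tnf and Cebpa ended, Hmga2 turned). Signals near background limit Cdkn2a, Cdkn2b and Cdkn1a.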
